A study of Mus musculus with 2 samples.

Results

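The 8 genes Saa1, Saa2, Saa3, Lcn2, Ltf, S100a8, S100a9 and Slpi encode acute phase and neutrophil-type defense proteins. They were chosen by name, with earlier results of these data known, from the 22909 mouse genes matched on the array. All 8 had a value, out of 14679 genes with one. Their RNA was measured in whole colon of 8-week-old C57BL/6 mice on 2 one-colour Agilent arrays, 1 per genotype. One array held RNA of Villin-Cre mice, the controls, in which Cre recombinase is expressed in intestinal epithelium and the label names no floxed gene. The other held RNA of Villin-Cre; EP4flox/flox mice, called EP4 cKO, which carry the same Cre and lose the prostaglandin E2 receptor EP4 in those cells. The labels name no treatment for either group. Both arrays therefore share the Villin-Cre transgene, and EP4 outside the epithelium is not targeted. RNA from 3 pools of colon tissue was combined for each array, so the spread between mice could not be measured and no p-value was computed.

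The comparison asks how the RNA of these proteins differed between colons with and without epithelial EP4. Serum amyloid A proteins are small apolipoproteins that cells of the liver and of mucosal surfaces make in the acute phase response. The response is driven by cytokines such as IL-6, IL-1 and TNF, which act through STAT3, NF-kB and C/EBP factors. Lipocalin 2 and lactoferrin withhold iron from bacteria. S100A8 and S100A9 together form calprotectin, which binds zinc and manganese and is abundant in neutrophils. Slpi inhibits neutrophil and mast cell serine proteases at mucosal surfaces. In the gut, epithelial cells as well as neutrophils can be a source of several of these proteins.

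Values below are normalized signals, in arbitrary units, scaled so that the trimmed mean of each array is 2500, followed by the software's modelled error of that signal. That error covers the hybridization only. A probe that the scanner software did not mark as well above background is called dim. A dim probe on the Villin-Cre array was held at 125.4, the smallest signal any measured probe had there, or at its own signal where that was higher, and its fold is then a lower bound. Signals of different probes are not comparable with each other. In whole tissue, fewer cells of a type and less RNA per cell cannot be told apart.

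Ptger4, the gene for EP4, read 6227 ± 624 in the Villin-Cre sample. The sample labelled EP4 cKO gave 5661 ± 566, so that the log2 ratio was -0.14 ± 0.20. Its dimmer probe read 393 ± 49.4 and 592 ± 60.8. Whether either probe lies in the deleted part was not known here, so the targeted gene did not check the labels, and each direction below rests on the labels alone. Of the gene probes, 45.4% of the Villin-Cre array were well above background, and 51.6% of the EP4 cKO array. All 14 colon epithelium markers had a value, 2 of them were more than 2-fold higher with EP4 cKO RNA (Krt20 3.48-fold and Aqp8 2.004-fold), and the summed signal was 3078665 and 3804209. Of 8 goblet cell markers with a value, 2 passed 2-fold upward (Clca1 2.48-fold and Retnlb, dim on the Villin-Cre array, at least 2197-fold) and none downward. Lists of other cells were mixed. Of 7 fibroblast markers with a value 6 were more than 2-fold lower on the EP4 cKO array, and so were all 4 red blood cell markers with a value. The summed signals were 14861 and 2252 for fibroblasts and 134902 and 4914 for red blood cells. Each sum includes 1 marker dim on both arrays. Col1a1, Col3a1, Lum, Hbb-b1 and Alas2 were dim on the EP4 cKO array only. Thy1, also a T cell marker, made up 1505 and 1836 of the fibroblast sums. Within 2-fold were 7 of 8 T cell markers with a value (1 higher), 5 of 6 of smooth muscle (1 lower), 3 of 3 of B and plasma cells and 2 of 2 of endothelium, and of 2 exocrine pancreas markers 1 was lower. The part of these differences in the member values was not tested.

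Of the 8 members, 6 were more than 2-fold higher on the EP4 cKO array (Slpi, Ltf, Saa3, Lcn2, S100a8 and S100a9), none was lower by that much, and Saa1 and Saa2 stayed within 2-fold. The share among all genes with a value was 4.88% beyond 2-fold upward and 7.98% downward. Because the members were chosen with earlier results of these data known, their count beside these shares is no test of the list. The paper already names Lcn2, Ltf, S100a8 and S100a9 among genes altered in these colons. The median of the member values, bounds included, was a log2 ratio of 1.5, beside -0.10 over all genes. Measured ratios stand behind 4 of the 8 values (Saa1, Saa2, S100a9 and Slpi), and 4 were lower bounds (Saa3, Lcn2, Ltf and S100a8), which had a value only through the EP4 cKO array. Of the 4 measured on both arrays 2 passed 2-fold, with a median log2 ratio of 0.95, beside -0.15 over all genes measured on both. Of those 12817 genes, 4.05% passed 2-fold upward and 6.27% downward. No gene spot was saturated on either array.

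**Figure D1:**
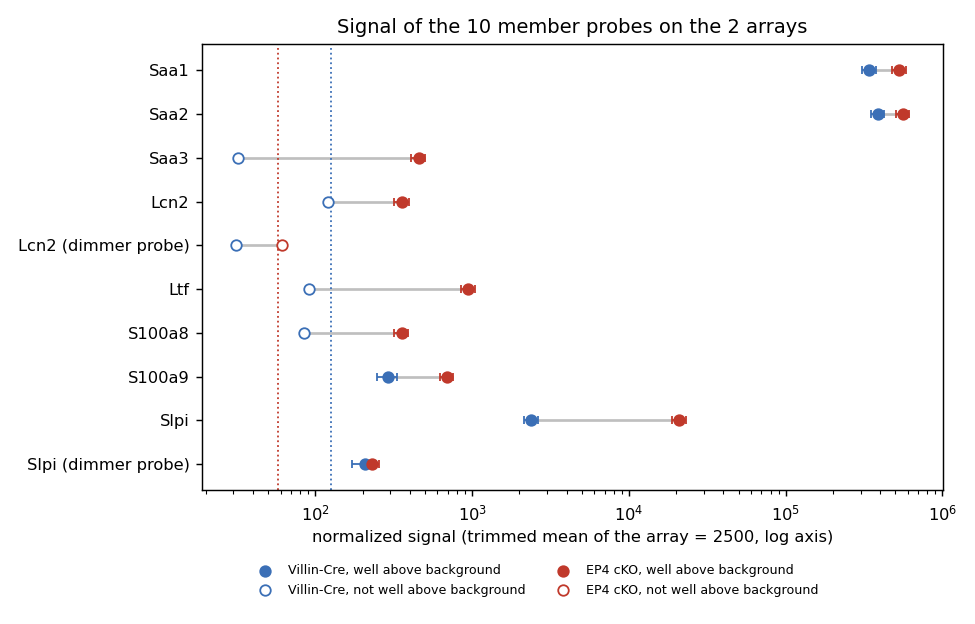
Normalized signal (log axis, trimmed mean of the array set to 2500) of the 10 member probes on the Villin-Cre array (blue) and the EP4 cKO array (red). Filled points were well above background and carry the modelled error as bars, open points were not and carry none, and dotted lines mark the lowest signal well above background of each array, 125.4 and 57.8. Each of the 5 probes measured on both arrays lies farther right on the EP4 cKO array, by the most for the brighter Slpi probe.

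The stretches before the transcription start of 6 members are shown so that Saa1 and Saa2, which gave like ratios, can be set beside Saa3, and because Ltf and Slpi gave the highest values and S100a8 alone lacked the C/EBP motif. They come from RefSeq on GRCm38.p6 and are written 5′ to 3′ on the gene's strand, up to the base before the start. Capitals mark matches, on either strand, to TTGCNNAA (the C/EBP motif), GGNNTTTCC (NF-kB), GAAANNGAA (ISRE) and TATAAA (a core promoter element).
Saa1: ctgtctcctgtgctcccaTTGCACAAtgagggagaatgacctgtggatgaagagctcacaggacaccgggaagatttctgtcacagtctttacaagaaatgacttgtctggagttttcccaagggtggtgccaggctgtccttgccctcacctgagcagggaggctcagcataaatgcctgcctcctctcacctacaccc
Saa2: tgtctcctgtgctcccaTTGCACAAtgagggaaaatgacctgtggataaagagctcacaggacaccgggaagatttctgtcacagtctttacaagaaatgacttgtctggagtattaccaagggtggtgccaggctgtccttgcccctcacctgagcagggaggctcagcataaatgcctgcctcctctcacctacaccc
Saa3: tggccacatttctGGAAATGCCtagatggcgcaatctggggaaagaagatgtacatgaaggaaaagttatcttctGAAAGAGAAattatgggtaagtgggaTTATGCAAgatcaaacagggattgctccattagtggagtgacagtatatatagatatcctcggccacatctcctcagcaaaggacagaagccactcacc
Ltf: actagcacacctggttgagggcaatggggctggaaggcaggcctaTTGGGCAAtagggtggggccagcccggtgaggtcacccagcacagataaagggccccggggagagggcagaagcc
S100a8: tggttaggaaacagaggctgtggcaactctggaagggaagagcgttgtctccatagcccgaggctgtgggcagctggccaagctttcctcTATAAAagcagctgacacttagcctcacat
Slpi: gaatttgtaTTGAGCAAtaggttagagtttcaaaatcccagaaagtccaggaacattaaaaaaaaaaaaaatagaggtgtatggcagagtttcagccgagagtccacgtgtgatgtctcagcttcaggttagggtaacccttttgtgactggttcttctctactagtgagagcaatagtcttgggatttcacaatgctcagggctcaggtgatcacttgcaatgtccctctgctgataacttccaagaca
The Saa1 stretch is chr7:46742981-46743180 on the minus strand, Saa2 chr7:46751633-46751832 on the plus strand and Saa3 chr7:46715677-46715876 on the minus strand. The Ltf stretch is chr9:111019172-111019291 on the plus strand, S100a8 chr3:90668951-90669070 on the plus strand and Slpi chr2:164356508-164356757 on the minus strand. Saa1 and Saa2 were 94.8% identical over their 250 bases before the start, and each was about as unlike Saa3, at 50.2% and 50.6%. The other pairs compared ranged from 47.6% (Lcn2 and Ltf) to 52% (Saa1 and Slpi).

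The C/EBP letters occurred before the start in 7 of 8 members (all but S100a8), and in 9.56% of all promoter stretches of that length. Saa1 and Saa2 share the match TTGCACAA, so the 7 are not 7 separate sequences. Saa3, whose ratio was a bound above 2-fold, held in addition the NF-kB match GGAAATGCC at bases -187 to -179 and the ISRE match GAAAGAGAA at bases -125 to -117, counted from the start. In windows of 300 bases around the start, 5.82% of all promoters held the NF-kB letters and 8.56% the ISRE letters. No member held TTCNNNGAA, the STAT and GAS motif (8.3% of all promoters), or TGANTCA, the AP-1 motif (7.81%), in that window. S100a8 held that core promoter element, known as the TATA box, at bases -30 to -25, and S100a9 at bases 0 to 5, from the start onward. In the window of 300 bases, 13.6% of promoters held it. These matches describe letters and not bound sites.

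Among the serum amyloid A genes, Saa1 and Saa2 encode the 2 acute phase forms of plasma. Saa1 read 340224 ± 34022 in Villin-Cre and 531686 ± 53169 in EP4 cKO colon, 1.56-fold higher (log2 ratio 0.64 ± 0.20). Saa2 read 385977 ± 38598 and 559058 ± 55906, 1.45-fold higher (log2 ratio 0.53 ± 0.20). The pair differed by 0.11 in log2 ratio, less than the modelled error of either. Both ratios were larger than that error and below 2-fold, and 8.76% and 10.96% of genes had a higher ratio. The unscaled median brightness of the Saa1 spot was 106927 and 217312, and that of Saa2 100880 and 192183, below the scanner's saturation value of 777928. The promoters of both genes are near-identical, as printed above, and whether their probes share transcripts was not tested.

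Saa3, the form made locally by macrophages, fat and epithelia, showed another pattern. It was dim on the Villin-Cre array, with 31.8, and read 455 ± 47.8 on the EP4 cKO array. The spot's unscaled brightness was 37.0 over a local background of 29.0 on the former and 189 over 30.0 on the latter. Saa3 was thus at least 3.63-fold higher (log2 ratio at least 1.86). At most 229 genes had a value above it. Saa4, the constitutive liver form, was dim on both arrays (27.9 and 43.1).

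Lcn2 and Ltf, the iron-withholding proteins, were both seen above background on the EP4 cKO array only. Ltf (lactoferrin, also a neutrophil granule protein) was dim on the Villin-Cre array, at 91.0, and reached 941 ± 94.9 with EP4 cKO RNA. It was at least 7.51-fold higher (log2 ratio at least 2.91), and at most 107 genes had a value above it. Lcn2, which captures bacterial siderophores, read 120, dim, and 356 ± 37.5 with its brighter probe, at least 2.84-fold higher (log2 ratio at least 1.5). Its Villin-Cre signal lay just under the lowest signal counted as measured there. The second Lcn2 probe was dim on both arrays (31.0 and 61.5), so the bound rests on 1 of 2 probes.

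Of 5 other lipocalin and transferrin family genes with a value 2 passed 2-fold upward and none downward, with a median log2 ratio of 0.14. Rbp4, the retinol carrier of plasma, read 1753 and 6225, 3.55-fold higher. Bdh2, a hydroxybutyrate dehydrogenase, was at least 2.89-fold higher (68.3, dim, and 362).

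S100a8 and S100a9, which lie next to each other on chromosome 3 and form calprotectin, were both more than 2-fold higher on the EP4 cKO array. S100a9 was measured on both arrays, at 289 ± 41.9 and 689 ± 70.2, 2.39-fold higher (log2 ratio 1.25 ± 0.26). S100a8 read 84.9, dim, and 355 ± 37.3, at least 2.83-fold higher (log2 ratio at least 1.5). The S100a9 ratio had 504 genes above it, and the S100a8 bound, set by the floor, at most 366. Each of the 4 normalized signals lay below 2500, the trimmed mean of the arrays.

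Of 12 other S100 and S100-binding genes with a value 2 passed 2-fold upward and none downward, with a median log2 ratio of 0.37. S100g, the calcium-binding protein calbindin-D9k of absorptive epithelium, read 14856 and 92675, 6.24-fold higher. S100a11 was 2.22-fold higher (5416 and 12030). The S100a9 ratio was below that of S100g and differed from that of S100a11 by less than its modelled error. The S100a8 bound was above the S100a11 log2 ratio (1.5 and 1.15), but below it with normexp and quantile normalization (1.03 and 1.17).

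Slpi had the largest ratio of the members measured on both arrays, while the true ratios of Ltf and Saa3, known as bounds, may lie above it. Its brighter probe read 2376 ± 240 in Villin-Cre and 20979 ± 2098 in EP4 cKO colon, 8.83-fold higher (log2 ratio 3.14 ± 0.20), with 96 genes (0.654%) above it. The second Slpi probe, matched to the same transcript, read 207 ± 35.3 and 228 ± 26.5, a log2 ratio of 0.14 ± 0.30. The probes differed by 3.00 in log2 ratio, far more than their modelled errors, and the mean of both was 1.64. Which of them reports the main Slpi transcript was not tested.

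**Figure D2:**
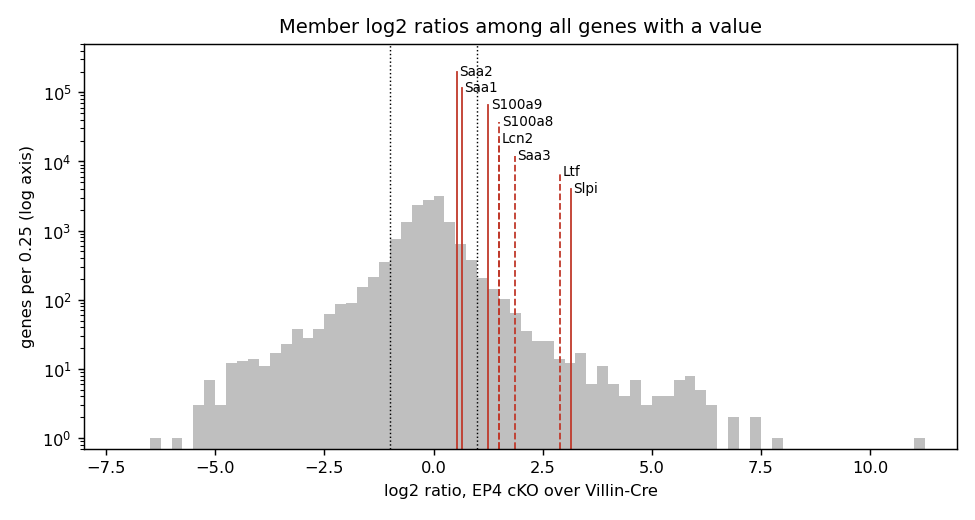
Distribution of the log2 ratio of EP4 cKO over Villin-Cre over the 14679 genes with a value (grey, genes per 0.25 on a log axis), with the 8 members as red lines. Solid lines are members measured on both arrays, dashed lines are lower bounds, and dotted lines mark 2-fold. All members lie right of the centre, Saa1 and Saa2 inside 2-fold and Ltf and Slpi in the thin right tail.

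Slpi belongs to the WAP antiproteases, which were examined with the serpins. Of 12 other genes of the list with a value 2 passed 2-fold upward and none downward, with a median log2 ratio of 0.06. Wfdc1 was 3.02-fold higher (280 and 845) and Serpinb9, an inhibitor of granzyme B, 2.45-fold higher (256 and 627), the latter below 2-fold with normexp and quantile normalization. Of 6 serine proteases that Slpi or its relatives can inhibit and that had a value, 2 passed 2-fold upward and none downward. Both encode mast cell proteases. Mcpt4 read 166 and 11093, 66.9-fold higher, and Cma1 815 and 1687, 2.07-fold higher. The Mcpt4 log2 ratio of 6.07 was 4.93 with normexp and quantile normalization. Tpsb2, a mast cell tryptase, gave no bound above 1 (97.8, dim, and 115). Elane, neutrophil elastase, read 2350 and 2097, a log2 ratio of -0.16.

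The other acute phase genes differed in both directions. Of 26 listed genes 13 had a value, 4 passed 2-fold upward and 1 downward, and their median log2 ratio was 0.44. Lbp, which presents endotoxin to CD14, read 102, dim, and 1012, at least 8.07-fold higher. Its log2 bound of 3.01 was 2.21 with normexp and quantile normalization. C3, the central complement protein, was 4.87-fold higher (4158 and 20243), Steap4 at least 2.18-fold higher (28.5 and 274) and Cfb 2.02-fold higher (20433 and 41233). Cfb was named after its value was seen, and Cfb and Steap4 stayed below 2-fold with normexp and quantile normalization, as did Cfb (0.90) with the mean of its probes. Mt2, a metallothionein, was 2.99-fold lower (171297 and 57209), and less than 2-fold lower with E1A scaling. Hp gave no bound above 1 (59.6, dim, and 71.5), and Orm1 was dim on both arrays.

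The cytokines that drive these genes were mostly near the background. Of 14 genes 7 had a value, 1 passed 2-fold upward and 1 downward. Il1b was at least 3.44-fold higher (88.4, dim, and 431), a log2 bound of 1.78 that was 1.12 with normexp and quantile normalization. Tnf read 472 and 477 with its brighter probe, a log2 ratio of 0.01, and its other probe gave 1.06. Il1f6, the gene for IL-36 alpha, was at least 9.82-fold lower (568 and 13.5, the latter dim), a log2 bound of -3.30 that was -2.18 with 1 floor for both arrays and -1.48 with normexp and quantile normalization. Il6, Il17a, Il22 and Csf3 were dim on both arrays, so no ratio could be given.

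Among 16 receptor genes with a value for these cytokines 1 passed 2-fold upward, 1 downward, and the median log2 ratio was -0.03. Tnfrsf1b, the second TNF receptor, was 3.08-fold higher (279 and 857), and Lifr, the LIF receptor, at least 19.3-fold lower (1115 and 57.6, the latter dim). The Lifr log2 bound of -4.27 was -3.15 with 1 floor and -2.32 with normexp and quantile normalization. Among 15 transcriptional regulators 1 passed 2-fold upward and none downward, with a median log2 ratio of 0.27. Socs3, a STAT3 target that restrains the same pathway, read 1214 and 3925, 3.23-fold higher. Stat3 (log2 ratio 0.15), Cebpb (0.30) and Cebpd (0.27) lay within 2-fold. With E1A scaling these passed 2-fold (1.19, 1.34 and 1.31), and 12 of the 15 regulators did so. Nfkbiz gave 0.90 with its brighter probe and 0.00 with the other.

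Of 12 receptors and partners of the member proteins with a value 1 passed 2-fold upward and none downward. Itln1, an epithelial lectin that binds lactoferrin, read 1238 and 17181, 13.9-fold higher. Tlr4, a receptor for calprotectin, had a log2 ratio of 0.79, Fpr2, a receptor for serum amyloid A, -0.54, and Slc22a17, a lipocalin 2 receptor, -0.78. With E1A scaling Fpr2 turned to 0.50 and Slc22a17 to 0.26. Over all lists without the members, 16 of 96 genes with a value (16.7%) passed 2-fold upward and 3 (3.12%) downward, and the median log2 ratio was 0.19.

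**Figure D3:**
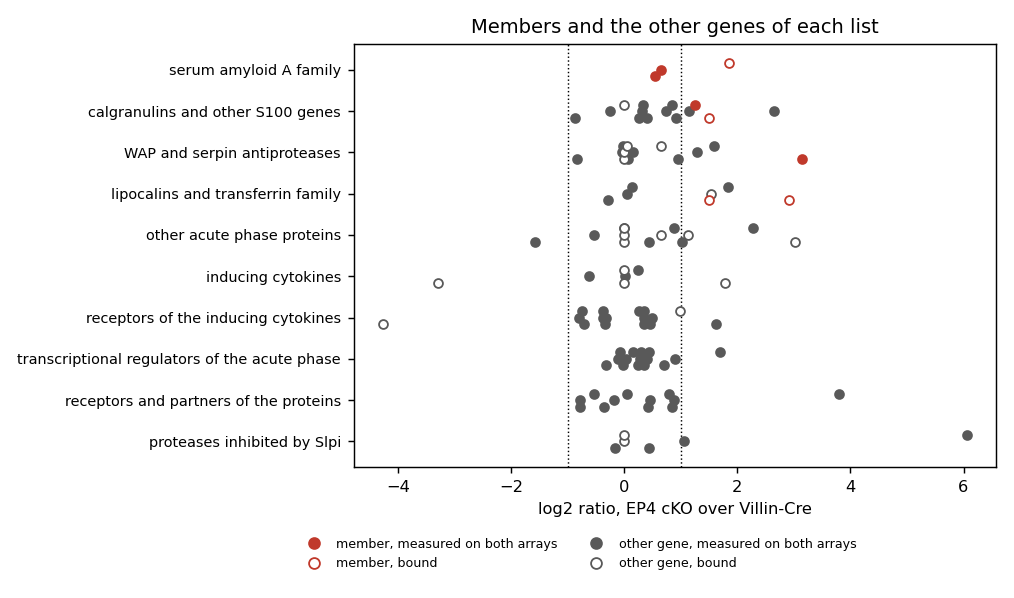
Log2 ratio of EP4 cKO over Villin-Cre for the members (red) and the other genes with a value (grey) of the 10 gene lists, 1 point per gene, shown by list. Filled points were measured on both arrays, open points are bounds, and dotted lines mark 2-fold. The members lie at or above 0.53 in their lists, while most other genes lie within 2-fold and Mcpt4 and Itln1 stand farthest right.

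Because several members are stored in neutrophils, the markers of that cell type were read beside them. Of 17 neutrophil markers on the array 9 had a value, 2 were more than 2-fold higher (Ltf, a member, and Cd177), and 1 was lower (Padi4). The Padi4 log2 ratio was a bound of -2.01 with the probe that gave the gene value, and 0.00 with its other probe. The gene value was -0.89 with 1 floor and -0.81 with normexp and quantile normalization. It was 0.84 with E1A scaling, and whether the same probe gave that value was not tested. The signals of all 17 added to 162622 in Villin-Cre and 163820 in EP4 cKO colon, a total of unlike probes that is set by Csf3r, lower in EP4 cKO colon, and Itgam (49347 and 68597), and that includes 8 dim genes. Cd177, a neutrophil surface protein, read 1315 and 8006, 6.09-fold higher. Among the defining markers, Mpo (55.3 and 65.5), Ngp (32.2 and 14.5), Camp (88.0 and 56.9) and Cxcr2 (25.9 and 11.7) were dim on both arrays. Elane was 2350 and 2097, Csf3r was 106452 and 81629 (log2 ratio -0.38), and Ly6g was not matched by name.

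The part of neutrophils in the member values was not tested. Among other immune cells, 2 of 9 macrophage markers with a value passed 2-fold upward and none downward. The signals of all 12 on the array, dim ones included, added to 56987 and 74341, a total set by Itgam, while Csf1r read 4874 and 2817. Of the liver markers, none of 4 with a value was beyond 2-fold, and Ahsg and Fgb were dim on both arrays.

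**Figure D4:**
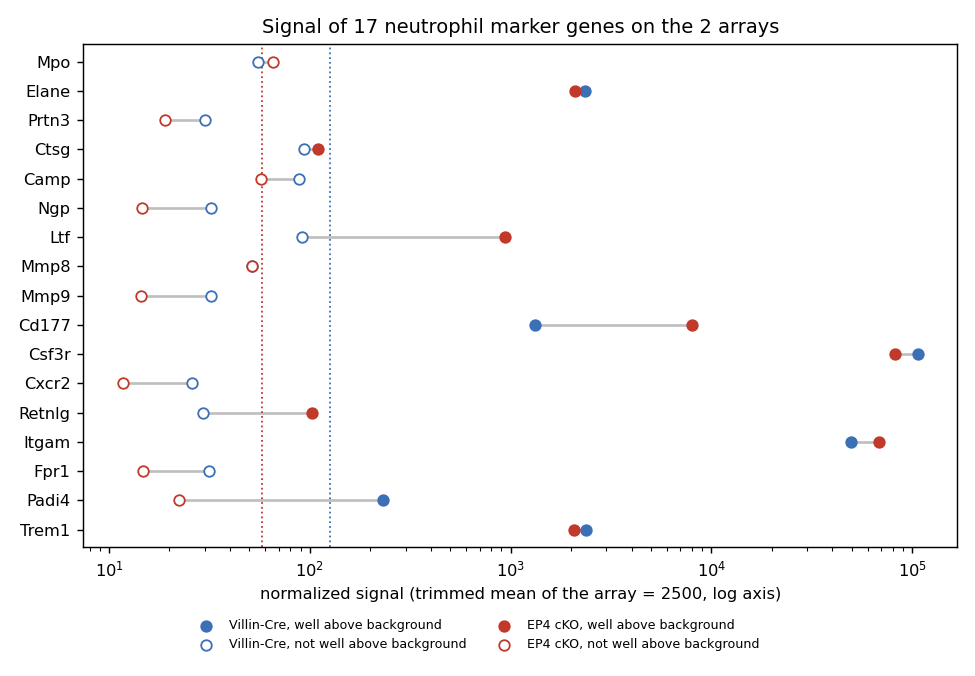
Normalized signal (log axis) of 17 neutrophil marker genes on the Villin-Cre array (blue) and the EP4 cKO array (red), with open points for genes not well above background and dotted lines at the lowest signal well above background of each array. Ltf and Cd177 lie farther right on the EP4 cKO array, and Mpo, Ngp, Camp and Cxcr2 have open points on both.

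The member ratios kept their sign under every other way of processing that gave them a value. Saa3 ranged from 1.25 to 3.84, Lcn2 from 1.02 to 2.54, Ltf from 2.02 to 3.95, S100a8 from 1.03 to 2.54, S100a9 from 1.04 to 2.29 and Slpi from 1.64 to 4.18. Saa1 ranged from 0.64 to 1.68 and Saa2 from 0.53 to 1.57, and both passed 2-fold only when arrays were scaled to the E1A control spots, which moves the median of probes measured on both arrays by 1.04. Relative to the median of all genes, the members' median was higher by 1.60 in the main scaling, by 1.67 with E1A scaling, by 1.03 with normexp and quantile normalization, by 1.1 where both arrays had to be well above background and by 2.18 with no filter. With normexp background correction and quantile normalization Lcn2, S100a8 and S100a9 lay just above 2-fold.

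**Figure D5:**
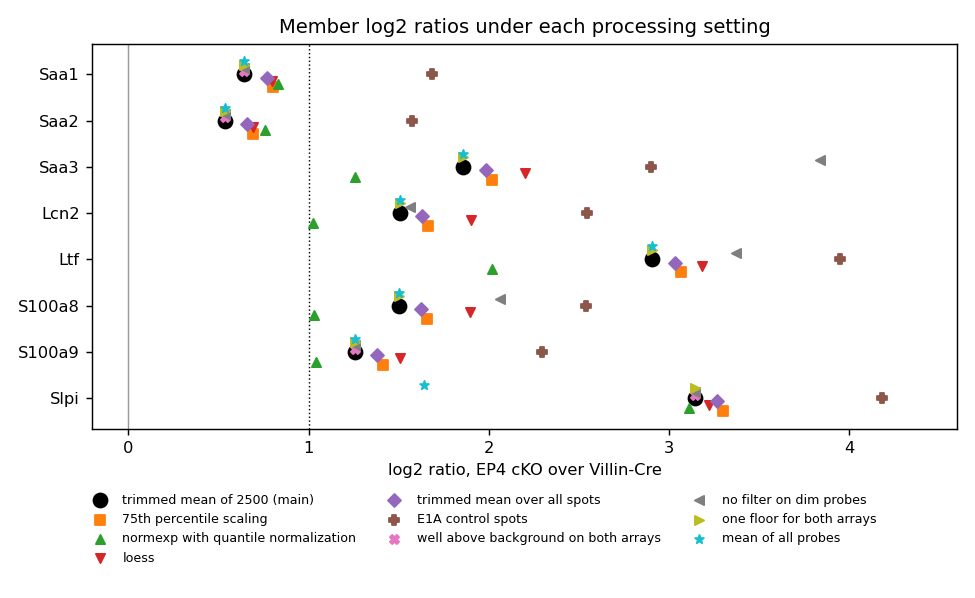
Log2 ratio of EP4 cKO over Villin-Cre of each member under 10 processing settings, with black circles for the trimmed mean of 2500 and the dotted line at 2-fold. Members that were not well above background on one array have no point for the setting that requires it on both. The 6 members above 2-fold in the main setting stay above it at every point, and Saa1 and Saa2 pass it only with E1A control spots.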

How the data were processed

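RNA of whole colon was hybridized to 1 Cy3-labelled array per genotype. The deposited values are Feature Extraction processed signals, an intensity per spot after background subtraction, with flags for well above background, saturation and outliers. Per the labels the authors used version 11.5.1.1, whereas the file headers name 12.0.3.1. Both arrays share a slide and a scan. Following the methods, the trimmed mean of gene probes (2% off each end) was set to 2500. Control spots and outlier spots (147 and 126) were left out, spots of a probe were averaged, and 32989 of 56593 probes (58.3%) were named through RefSeq accessions. The probe with the highest mean signal among those with a value gave the gene value, and a threshold of 2-fold was used. Where 1 side was not well above background, it was held at the higher of the array's floor (125.4 and 57.8) and its own signal, a bound not above 1 was counted as 0, and probes dim on both sides had no value. The log2 ratio is EP4 cKO over Villin-Cre. Over 289 repeated probes, the median SD of the log2 ratio between spots was 0.035.

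The 11 alternatives run were scaling to the 75th percentile, to all spots or to E1A control spots; normexp (offset 50, on the median signal, since the mean signal was not used here) with quantile normalization; loess (span 0.3); both arrays well above background; no filter; 1 floor; the mean of probes; and thresholds of 1.5-fold and 3-fold. Python 3.11.15, numpy 2.4.6, pandas 2.3.3, statsmodels 0.14.6, R 4.3.3 and limma 3.58.1 were used, and the scripts were tested on simulated data. Genes named were the 8 members, Ptger4, fixed regulators and, per list, up to 4 genes with the largest ratio beyond 2-fold. Neutrophil, macrophage, epithelial, goblet cell, fibroblast, red blood cell, T cell, B and plasma cell, smooth muscle, endothelial, pancreatic and liver marker lists served as checks. Members and lists were chosen with earlier results of these data known. Promoters came from 32851 RefSeq windows of 300 bases, and identity was counted over aligned columns. A protein comparison was planned and not run, as no protein table was used here. With 1 array per genotype the number of arrays limits the precision.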

Additional observations from a re-analysis of the deposited data

How the results depend on the processing

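The count of 6 members more than 2-fold higher was 2 when both arrays had to be well above background, because the 4 bounds drop out. It was 3 at a 3-fold threshold. The share of all genes was 4.88% in the main setting, 4.05% with both arrays well above background and 2.21% at 3-fold. The members' median log2 ratio was 1.03 with normexp and quantile normalization, 1.90 with loess, 2.54 with E1A control spots, 1.81 with no filter on dim probes and 0.95 when both arrays had to be well above background. Genes more than 2-fold higher, 717 in all, numbered 5794 with E1A control spots and 1172 with no filter, and 1447 and 325 at thresholds of 1.5-fold and 3-fold. Genes lower, 1171 in all, numbered 396 with normexp and quantile normalization, 726 with loess, 338 with E1A control spots and 7253 with no filter, and 2740 and 548 at those thresholds. The cause of these shifts was not tested, except where a rule removes genes by construction.

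No member ratio reversed, in part because a bound not above 1 was counted as 0. Among the other named genes, Serpinb9 (0.96), Cfb (0.96) and Steap4 (0.80) fell below 2-fold with normexp and quantile normalization. In that setting Mcpt4 was 4.93, Lbp 2.21 and Il1b 1.12. Cfb was 0.90 with the mean of its probes, and Mt2 was -0.54 with E1A control spots. Il1f6 was -2.18 with 1 floor and -1.48 with normexp, and Lifr -3.15 and -2.32. Padi4 ranged from -3.38 to 0.84, and whether 1 probe gave all these values was not tested. With E1A control spots Fpr2 (0.50), Slc22a17 (0.26), Csf3r (0.66) and Elane (0.88) also turned positive, Stat3 (1.19), Cebpb (1.34), Cebpd (1.31), Nfkbiz (1.94), Tlr4 (1.83) and Tnf (1.06) passed 2-fold, and Stat3 was -0.11 with the mean of its probes. Nfkbiz also passed 2-fold with 75th percentile scaling (1.057), loess (1.061) and the trimmed mean over all spots (1.025), where 2 regulators did so. Scalings other than E1A control spots moved the median of probes measured on both arrays by at most 0.185. Ptger4 was 0.02 with 75th percentile scaling and 0.90 with E1A control spots. No paired analysis was possible because each genotype has 1 array. Signal over background limits Saa3, Lcn2, Ltf and S100a8 to bounds, and no value has a replicate check.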
